A study of Mus musculus with 18 samples.

Results

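The genes described here encode factors that hold RNA polymerase II near the promoter or release it into elongation. They are *Cdk9*, *Ccnt1*, *Ccnt2*, *Hexim1*, *Larp7*, *Supt5*, *Nelfb*, *Ell2* and *Aff4*, 9 of the 54446 genes in the deposited counts, and they were found by matching gene identifiers to these symbols in GENCODE M21. Nascent RNA was measured in wild-type (WT) mouse embryonic stem (mES) cells and in mES cells labelled *Tet2*-KO, which lack the methylcytosine dioxygenase TET2 by their label. Cells of both genotypes were passaged on gelatin to clear feeder cells. They were grown in medium with fetal bovine serum and with LIF, CHIR99021 and PD0325901, which keep the cells undifferentiated. They received 1 mM 5-ethynyl uridine (EU), a uridine analogue that enters RNA as it is made, for 10, 20 or 40 min. EU-labelled RNA was captured and sequenced, and each of the 6 groups has 3 libraries, which makes 18. Each genotype is represented by 1 cell line, so replicates are samples of that line rather than independent knockout clones, and p-values measure only the spread between such samples.

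Soon after initiation, RNA polymerase II is held a short way downstream of the start site by DSIF (which holds SUPT5) and by the negative elongation factor NELF (which holds NELFB). The kinase complex P-TEFb, made of CDK9 and cyclin T1 or T2, phosphorylates DSIF, NELF and the polymerase, and the polymerase then elongates. P-TEFb is kept inactive in the 7SK snRNP, where LARP7 binds 7SK RNA and HEXIM1 inhibits the kinase. P-TEFb is active in the super elongation complex, in which AFF4 is the scaffold and ELL2 an elongation factor.

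Upstream sequence is shown for *Ccnt2*, *Larp7* and *Hexim1*, since the first pair are the members whose share of reads was higher in *Tet2*-KO at all 3 labelling times and *Hexim1* had the largest change of share with labelling time. The bases come from RefSeq (GRCm38.p6) and stop where the first exon in GENCODE begins. *Ccnt2* is on the plus strand at chr1:127774093-127774163, *Larp7* on the minus strand at chr3:127553350-127553488 and *Hexim1* on the plus strand at chr11:103116075-103116230. Capitals mark CCAAT on either strand (ATTGG on the reverse), GGGCGG on the strand shown, TATAA and TGACGTCA.
Ccnt2: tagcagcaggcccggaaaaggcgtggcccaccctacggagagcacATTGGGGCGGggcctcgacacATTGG
Larp7: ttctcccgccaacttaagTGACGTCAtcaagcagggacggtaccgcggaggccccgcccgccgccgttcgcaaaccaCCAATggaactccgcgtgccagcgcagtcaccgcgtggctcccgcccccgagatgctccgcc
Hexim1: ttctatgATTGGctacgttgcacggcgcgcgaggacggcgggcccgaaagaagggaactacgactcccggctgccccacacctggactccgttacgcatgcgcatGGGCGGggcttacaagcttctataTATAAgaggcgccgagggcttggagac
The motifs were chosen after the sequences had been read, and both strands were searched from 250 bases before to 50 after the RefSeq start. In *Ccnt2* the first ATTGG and the GGGCGG overlap, and in *Larp7* GGGCGG lies on the reverse strand and is not capitalised. TATAA stood in the windows of *Hexim1* and *Nelfb* and in 24.9% of 32851 RefSeq promoters. TGACGTCA stood in those of *Larp7* and *Ell2* and in 1.79% of all promoters. CCAAT stood in 5 of the 9 windows and in 37.4% of all promoters, GGGCGG in 8 of the 9 and in 35.7%, and CACGTG in *Aff4* alone and in 7.15%. A match describes the letters only.

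The libraries held 17931614 to 23069143 reads on genes and 44162 to 512186 on transcripts of the ERCC spike-in, a set of synthetic RNAs added in proportion to total RNA. All 9 members passed the filter on low counts, as did 19910 genes in total. *Nelfb* had 195 to 387 reads per library, *Cdk9* 374 to 628 and *Hexim1* 546 to 1394, and each of the other members had at least 2102. Reads on *Tet2* were 589 to 741 per 1000000 gene reads (CPM) in WT and 530 to 643 in the libraries labelled *Tet2*-KO. Every *Tet2*-KO library was below every WT library of its time, with 530 to 540 against 589 to 599 at 10 min. The ranges were 585 to 596 against 683 to 702 at 20 min and 635 to 643 against 734 to 741 at 40 min. With this many reads left, a total over the gene did not show the deletion and the genotypes are those of the labels. The summed share of 10 mES cell markers was 2231 to 2404 CPM in WT and 1583 to 1795 in *Tet2*-KO, with *Sox2* at 3 reads or fewer. All of the span of *Sox2* lies in another gene of the same strand, where the counting left reads out, so its count does not show its level. That of 10 feeder fibroblast markers was 1031 to 1118 and 855 to 983, with *Lum* at 3 reads or fewer in both genotypes and *Dcn* in *Tet2*-KO, and that of 6 primitive endoderm markers was 6.75 to 13.8 and 5.49 to 10.7. The part of these differences in the results was not tested, and in bulk samples fewer cells of a type cannot be told apart from less RNA per cell.

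The genes were compared on both of the scales that the counts allow. Reads per 1000 ERCC reads give the level calibrated by the spike-in. Reads per 1000000 gene reads (CPM) give the share of a gene among all nascent RNA that was counted. On the first scale the median of all 19910 genes was 0.70 higher (log2) in *Tet2*-KO, and on the second it was 0.04 lower.

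On the calibrated scale every member was higher in *Tet2*-KO, as were most genes. In the average over the 3 times, 9 of 9 members were higher by the quasi-likelihood test of edgeR (Benjamini-Hochberg adjusted p under 0.05), against 80.5% of all genes tested, so this count does not set the members apart. The same 9 were higher at 10 min (79.0% of all genes), at 20 min (53.7%) and at 40 min (68.2%). The libraries of the 2 genotypes did not overlap at any of the 3 times for 9 of 9 members, against 51.6% of all genes. The differences ranged from 0.53 for *Ell2* to 1.01 for *Ccnt2* and *Larp7* (log2), and the median over members was 0.64. The count at 20 min was 7 without WT replicate 3 or *Tet2*-KO replicate 2 or 3 of that time, where *Ell2* and *Nelfb* lost the call, and 8 without WT replicate 1 of 20 or 40 min or *Tet2*-KO replicate 3 of 40 min, where *Ell2* did. *Ell2* also lost the call at 20 min with DESeq2, with a replicate block and without the filter on low counts. Over 24 alternatives at 20 min the adjusted p of *Ell2* by edgeR or DESeq2 was 0.0207 to 0.152 and that of *Nelfb* 0.00555 to 0.243. At 40 min *Nelfb* lost the call without WT replicate 3 of 40 min (adjusted p = 0.0541 by edgeR).

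**Figure D1:**
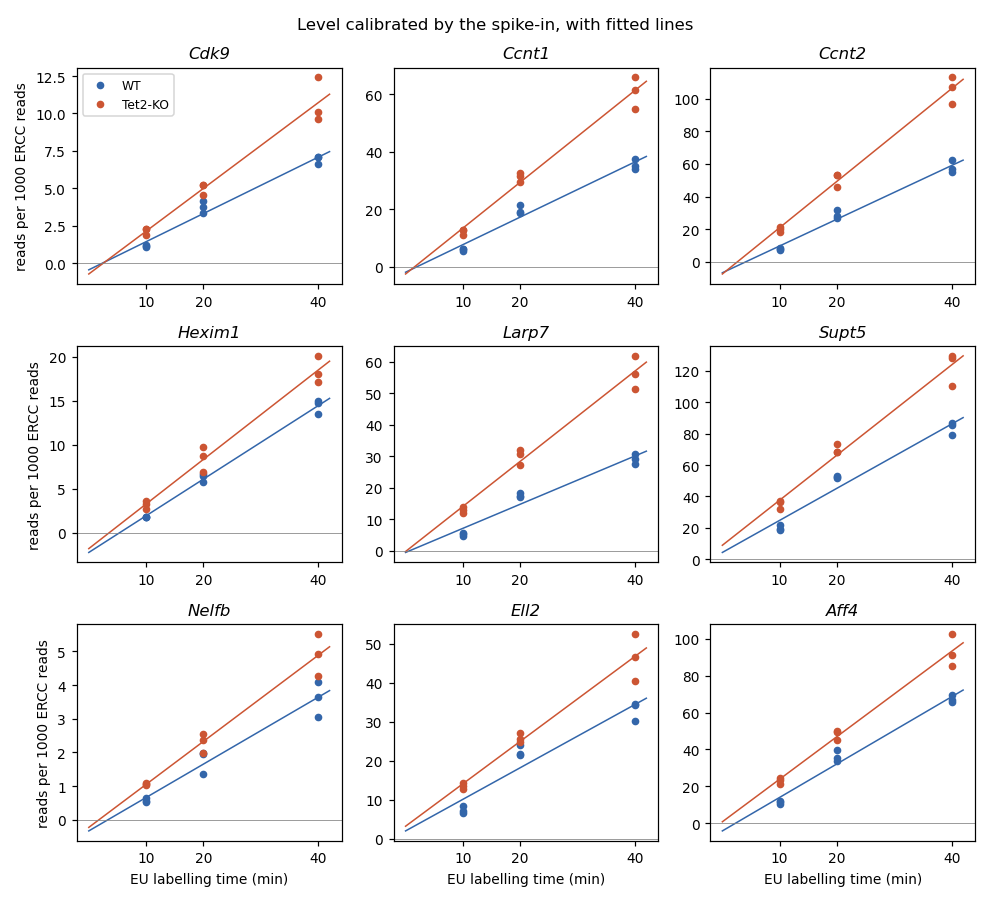
Level of each member (reads per 1000 ERCC reads, y axis from a different maximum in each panel) against EU labelling time (min); each point is 1 library and the lines are least-squares fits over the 9 libraries of each genotype. All *Tet2*-KO points lie above the WT points at each time, and the *Tet2*-KO line is the steeper in all 9 panels.

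*Ccnt2* encodes cyclin T2, one of the alternative cyclins of P-TEFb, and its gene lies on chromosome 1 of mm10 (127774164 to 127808061, plus strand). In WT the share of *Ccnt2* was 173, 163 and 163 CPM in the replicates at 10 min, 196, 203 and 190.3 at 20 min and 227, 240.3 and 238 at 40 min. In *Tet2*-KO it was 208, 206 and 213 at 10 min, 240.1, 247 and 252 at 20 min and 264, 265 and 271 at 40 min. All *Tet2*-KO libraries were above all WT libraries at each time, and within each genotype every library of a longer labelling time was above every library of a shorter one. The share was higher in *Tet2*-KO by 0.28 ± 0.02 (log2, SE) in the average over times (edgeR quasi-likelihood test, adjusted p = 3.21e-15). Its level per 1000 ERCC reads rose from 7.78 ± 0.713 (SD, n = 3) at 10 min to 58.1 ± 3.59 at 40 min in WT and from 19.9 ± 1.48 to 106 ± 8.2 in *Tet2*-KO.

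*Ccnt1* encodes cyclin T1, the other cyclin of P-TEFb, on chromosome 15 (98538689 to 98570923, minus strand). In WT its share was 133, 122 and 128 CPM at 10 min, 132, 136 and 134 at 20 min and 144, 145 and 142 at 40 min. In *Tet2*-KO it was 132, 123 and 128 at 10 min, 154, 151 and 149 at 20 min and 153, 149.6 and 155 at 40 min. The genotypes overlapped at 10 min and were apart at 20 and 40 min, with *Tet2*-KO higher. The difference in share averaged 0.09 ± 0.02 (log2, SE), with an edgeR adjusted p of 0.000291. At 20 min the difference was 0.17 (adjusted p = 8.68e-05 by edgeR) and at 40 min 0.08 (adjusted p = 0.0457), and the call at 40 min was lost without the filter on low counts (adjusted p = 0.0989) and without WT replicate 1 of 20 min, any WT replicate of 40 min, or *Tet2*-KO replicate 2 or 3 of 20 min or 1 or 3 of 40 min. Over 24 alternatives its adjusted p by edgeR or DESeq2 was 0.0152 to 0.147.

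*Cdk9*, the kinase of P-TEFb, lies on chromosome 2 (32705784 to 32713076, minus strand) and gave far fewer reads than its cyclins. Its share was 23.1 to 29.7 CPM over the 9 WT libraries and 20.8 to 31.3 over the 9 *Tet2*-KO libraries, and the genotypes overlapped at 10 and 40 min. At 20 min too they overlapped, with 23.1, 26.3 and 26.9 in WT and 23.7, 24.2 and 24.7 in *Tet2*-KO. The averaged difference of -0.09 ± 0.05 (log2, SE) did not pass the test (edgeR adjusted p = 0.153), but it did without the third *Tet2*-KO replicate of 40 min, the library with the highest share (-0.13, adjusted p = 0.0374, range 0.0374 to 0.444 over 23 alternatives). Per 1000 ERCC reads *Cdk9* was 6.94 ± 0.272 (SD, n = 3) in WT and 10.7 ± 1.48 in *Tet2*-KO at 40 min.

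*Larp7*, whose product binds 7SK RNA and stabilises the 7SK snRNP, lies on chromosome 3 (127536714 to 127553349, minus strand). In WT its share was 113, 113 and 111 CPM at 10 min, 119.5, 117 and 122 at 20 min and 120.4, 119 and 115 at 40 min. The *Tet2*-KO libraries had 146, 135 and 129 at 10 min, 142, 143 and 152 at 20 min and 144, 140.5 and 142 at 40 min. The lowest *Tet2*-KO library was above the highest WT library at every time, and the difference was nearly the same at each, with 0.28, 0.28 and 0.27 (log2). Its average was 0.28 ± 0.02 (SE), with an edgeR adjusted p of 7.76e-13. The *Mir302* and *Mir367* genes, a cluster of microRNAs, lie in an intron of *Larp7* on the opposite strand and had 0 to 9 reads each per library.

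*Hexim1*, the inhibitor of P-TEFb in the 7SK snRNP, is a gene of 1 exon on chromosome 11 (103116231 to 103119725, plus strand). In WT its share was 38.7, 35.1 and 41.7 CPM at 10 min, 44.7, 42.5 and 41.5 at 20 min and 60.4, 57.8 and 56.2 at 40 min. In *Tet2*-KO the values were 33.8, 30.3 and 35.6 at 10 min, 36.2, 45.4 and 41.4 at 20 min and 46.8, 46.8 and 45.6 at 40 min. The genotypes overlapped at 10 and 20 min, and at 40 min every *Tet2*-KO library was below every WT library. The averaged difference in share was -0.20 ± 0.04 (log2, SE; edgeR adjusted p = 8.95e-05), opposite in sign to that of *Larp7*. At 10 min the difference of -0.21 passed (edgeR adjusted p = 0.0183), but not with TMM factors or DESeq2 (adjusted p = 0.125 with the latter), nor in a fit of the 10 min libraries alone (0.0623). It was also lost without WT replicate 3 or *Tet2*-KO replicate 2 of 10 min (0.121 and 0.125), and over 24 alternatives the adjusted p was 0.00432 to 0.125.

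*Supt5*, the large subunit of DSIF, lies on chromosome 7 (28314891 to 28338746, minus strand) and had the highest share of the members. In WT its share was 419, 429.7 and 436 CPM at 10 min, 358, 334 and 376 at 20 min and 352, 335 and 331 at 40 min. The *Tet2*-KO libraries had 385, 356 and 362 at 10 min, 355, 319 and 348 at 20 min and 301, 302 and 323 at 40 min. The genotypes overlapped at 20 min only, with *Tet2*-KO lower at the other times. The averaged difference was -0.14 ± 0.02 (log2, SE), with an edgeR adjusted p of 1.67e-06. At 20 min the difference of -0.06 did not pass (edgeR adjusted p = 0.191), but without WT replicate 2 of that time, the lowest of the WT libraries there, it did (-0.11, adjusted p = 0.0288, range 0.0288 to 0.765 over 24 alternatives).

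*Nelfb*, a subunit of NELF, lies on chromosome 2 (25199712 to 25211489, minus strand) and had the fewest reads of the members. Its share was 9.78 to 16.8 CPM in WT and 10.3 to 12.8 in *Tet2*-KO, and the genotypes overlapped at each time. At 40 min the WT libraries had 16.8, 14.1 and 12.8 and the *Tet2*-KO libraries 12.8, 11.6 and 12.4, so that the overlap came from a single library of each. The difference at 40 min did not pass. It passed as lower in a fit of the 40 min libraries alone (-0.25, edgeR adjusted p = 0.0304). Without WT replicate 3 of 40 min it also passed (-0.34, adjusted p = 0.0395, range 0.0304 to 0.475 over 24 alternatives). The averaged difference of -0.17 ± 0.07 (log2, SE) passed by edgeR (adjusted p = 0.0341). It did not pass with TMM factors (adjusted p = 0.107) or DESeq2 (0.103), nor when any of 7 libraries was left out, namely WT replicate 3 of 10 min, 1 or 2 of 20 min or 1 of 40 min, or *Tet2*-KO replicate 3 of 10 min, 1 of 20 min or 2 of 40 min. Over 23 alternatives the adjusted p by edgeR or DESeq2 was 0.00655 to 0.109, with the highest value without the first WT replicate of 40 min.

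*Ell2*, an elongation factor of the super elongation complex, lies on chromosome 13 (75706757 to 75772364, plus strand). In WT its share was 152, 163 and 152 CPM at 10 min, 150.1, 153 and 153 at 20 min and 141, 134 and 126 at 40 min. In *Tet2*-KO the values were 142, 143 and 141 at 10 min, 130.0, 125 and 121 at 20 min and 122, 110.5 and 117 at 40 min. Every *Tet2*-KO library was below every WT library of the same time. The averaged difference was -0.20 ± 0.02 (log2, SE), with an edgeR adjusted p of 2.13e-09. The call at 10 min (-0.14, adjusted p = 0.00439 by edgeR) was lost with TMM factors (adjusted p = 0.173) and DESeq2 (0.203), and its adjusted p was 0.00159 to 0.203 over 24 alternatives.

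*Aff4*, the scaffold of the super elongation complex, lies on chromosome 11 (53350833 to 53421830, plus strand). In WT its share was 246, 239 and 242 CPM at 10 min, 246, 252 and 239.5 at 20 min and 269, 269 and 279 at 40 min. In *Tet2*-KO it was 244, 237 and 245 at 10 min, 234, 229.8 and 237 at 20 min and 239, 233 and 229 at 40 min. The genotypes overlapped at 10 min and were apart at 20 and 40 min, with *Tet2*-KO lower. The difference in share was -0.00 at 10 min, -0.07 at 20 min and -0.22 at 40 min (log2), and its average was -0.10 ± 0.02 (SE; edgeR adjusted p = 2.41e-06). With TMM factors the value at 10 min was 0.07 and passed as higher (edgeR adjusted p = 0.0467, the lowest over 24 alternatives). The call at 20 min (adjusted p = 0.0364 by edgeR, 0.0196 to 0.355 over 24 alternatives) was lost with TMM factors, with DESeq2, without the filter on low counts, and without replicate 1 or 2 of 20 min of either genotype.

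**Figure D2:**
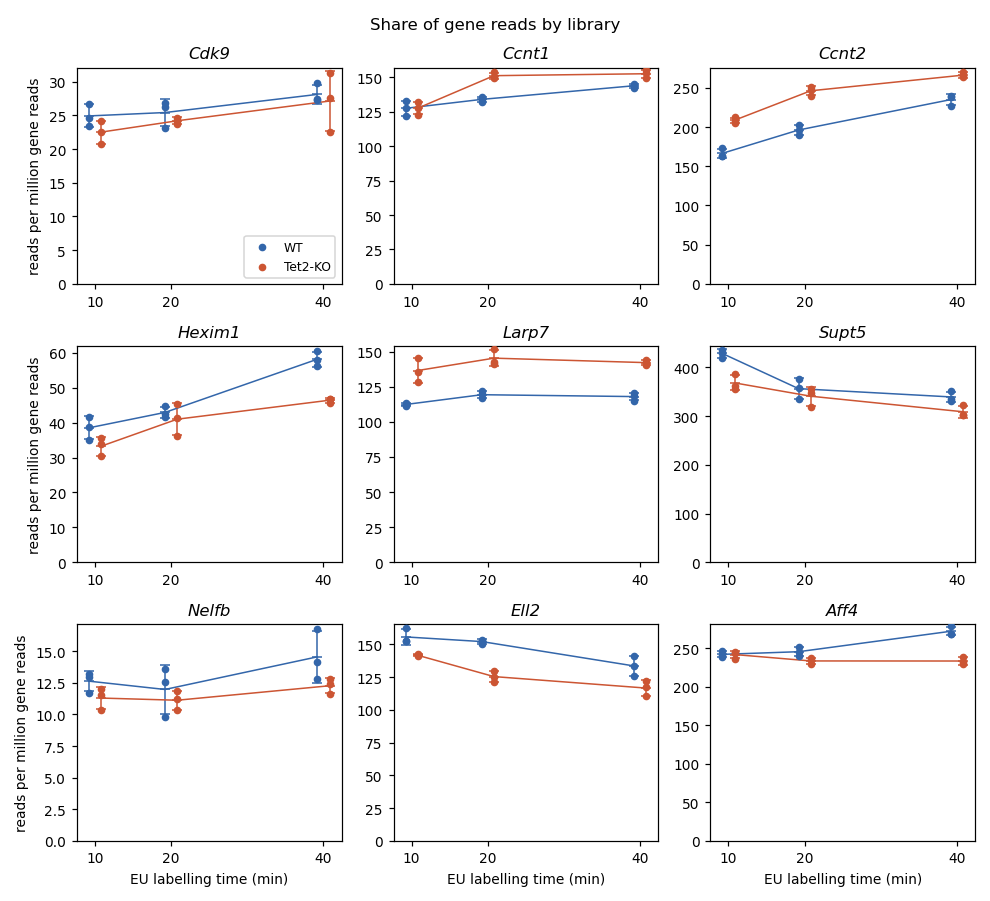
Share of gene reads (CPM, y axis from 0) of each member against EU labelling time (min), with 1 point per library, lines through the group means and bars of 1 SD (n = 3). *Ccnt2* and *Larp7* are higher in *Tet2*-KO at each time and *Ell2* is lower, while the *Aff4* groups meet at 10 min and part by 40 min.

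By share of gene reads the members therefore moved in both directions. In the average over times 3 members were higher in *Tet2*-KO (*Larp7*, *Ccnt2* and *Ccnt1*), against 24.6% of all genes tested, and 5 were lower (*Ell2*, *Hexim1*, *Nelfb*, *Supt5* and *Aff4*), against 32.0%. The median over the 9 members was -0.10 and over all genes -0.04 (log2). Both cyclins of P-TEFb were among those that rose, but *Cdk9*, its kinase, did not pass. *Aff4* and *Ell2* were among those that fell, but of 6 other tested genes of the super elongation complex 2 were higher and 2 lower. The pair from the 7SK snRNP, *Larp7* and *Hexim1*, went apart. At single times, 2 members were higher at 10 min (17.9% of all genes) and 3 lower (27.1%), 3 were higher at 20 min (17.6%) and 2 lower (20.7%), and 3 were higher at 40 min (18.9%) and 4 lower (19.6%). With libraries that did not overlap at any time, 2 members were above WT, against 11.8% of all genes, and 1 below, against 13.9%. Over all genes at 10 min, 3554 were higher and 5389 lower, which became 4477 and 4262 with TMM factors. In the average over times the 5690 higher and 5546 lower genes with TMM factors stood against 4902 and 6375.

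**Figure D3:**
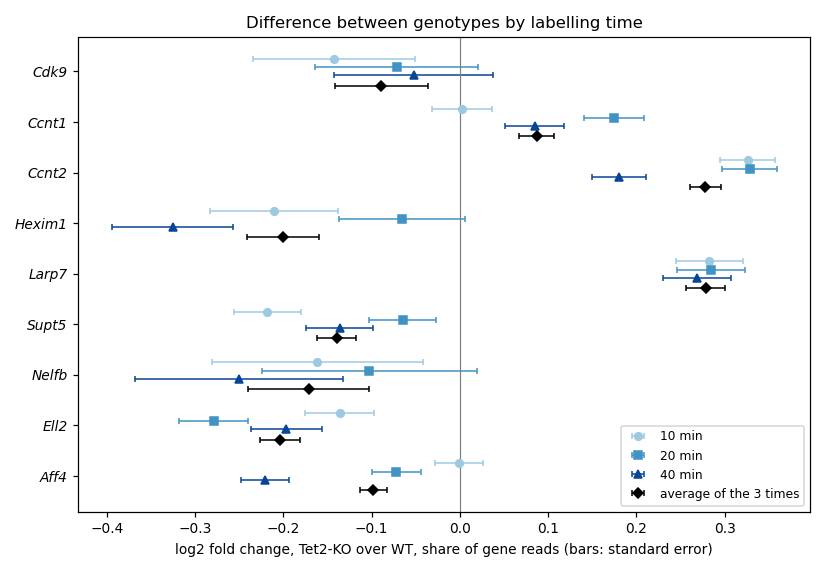
Difference in share of gene reads between *Tet2*-KO and WT (log2 fold change, x axis) for each member at 10, 20 and 40 min of EU and in the average of the 3 times, with bars of 1 standard error. *Larp7* stays near 0.28 at all 3 times, *Ccnt2* falls from 0.33 to 0.18 and *Aff4* moves from -0.00 to -0.22.

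The difference between genotypes was then compared between labelling times. Per ERCC read, the difference was smaller at 40 than at 10 min for 5 members, *Aff4*, *Ccnt2*, *Hexim1*, *Ell2* and *Larp7*, against 19.3% of all genes. The change was -0.57 ± 0.12 (log2, SE) for *Aff4* (edgeR adjusted p = 0.000454) and -0.49 ± 0.12 for *Ccnt2* (adjusted p = 0.00231). It was -0.47 for *Hexim1*, -0.40 for *Ell2* and -0.36 for *Larp7*, against a median of -0.29 over all genes. The difference did not fall steadily with labelling time. Its median over all genes was 0.96 at 10 min, 0.45 at 20 min and 0.67 at 40 min (log2), and over the 9 members 0.89, 0.42 and 0.55. The count of 5 was 2 without the second WT replicate of 40 min, the third *Tet2*-KO replicate of 10 min or the second *Tet2*-KO replicate of 40 min, and 3 without the third WT replicate of 10 min or the first of 40 min. It was 7 without replicate 2 of 10 min of either genotype, where *Supt5* was added with *Nelfb* (WT replicate) or *Ccnt1* (*Tet2*-KO replicate). Over 23 alternatives the adjusted p was 0.00307 to 0.0902 for *Hexim1*, 0.00124 to 0.114 for *Ell2* and 0.006 to 0.134 for *Larp7*. By share of gene reads the change was lower for 2 members, *Aff4* (-0.22 ± 0.04, edgeR adjusted p = 0.000202) and *Ccnt2* (-0.15 ± 0.04, adjusted p = 0.0293), against 3.36% of all genes. *Aff4* passed with each of the 18 libraries left out in turn. *Ccnt2* lost the call in 7 of these fits, without WT replicates 2 or 3 of 10 min, WT replicates 2 or 3 of 40 min, *Tet2*-KO replicate 3 of 10 min or *Tet2*-KO replicates 1 or 2 of 40 min, with a largest adjusted p of 0.0904 and a smallest of 0.000449 over 23 alternatives. Over all genes this change was higher for 1173 and lower for 668 by share, and higher for 774 and lower for 1219 with TMM factors.

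The members were next compared between labelling times within each genotype. Per ERCC read all 9 members rose from 10 to 40 min, against 96.7% of all genes in WT and 94.7% in *Tet2*-KO. By share, 4 members rose in WT, against 16.1% of all genes. These were *Hexim1* by 0.60 ± 0.07 (log2, SE; edgeR adjusted p = 1.24e-08), *Ccnt2* by 0.50 ± 0.03 (adjusted p = 9.59e-15), *Ccnt1* by 0.17 and *Aff4* by 0.17. *Supt5* fell by 0.34 and *Ell2* fell by 0.22, which made 2 that fell, against 29.5%. *Cdk9*, *Larp7* and *Nelfb* did not pass in WT. The median over all genes was -0.14 in WT.

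In *Tet2*-KO 4 members rose, against 16.5% of all genes, namely *Hexim1* by 0.48, *Ccnt2* by 0.35, *Ccnt1* by 0.26 and *Cdk9* by 0.26. *Supt5* and *Ell2*, the 2 that fell, against 20.0%, were lower by 0.25 and 0.28. *Larp7*, *Nelfb* and *Aff4* did not pass. *Larp7* passed as higher with TMM factors (0.10, edgeR adjusted p = 0.0330) and without *Tet2*-KO replicate 1 of 10 min (0.11, adjusted p = 0.0317). Over 23 alternatives its adjusted p by edgeR or DESeq2 was 0.0317 to 0.817. The call of *Cdk9* in *Tet2*-KO (edgeR adjusted p = 0.0238) was lost without *Tet2*-KO replicate 2 or 3 of 10 min or replicate 2 or 3 of 40 min, with a range of 0.00142 to 0.248 over 23 alternatives. With TMM factors the median of all genes in WT moved by 0.10 to -0.03, and the members that rose in WT numbered 7, with *Cdk9* (0.28), *Nelfb* (0.31) and *Larp7* (0.17) added. All genes in WT then split into 4546 higher and 4383 lower, where the share gave 3196 and 5875.

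**Figure D4:**
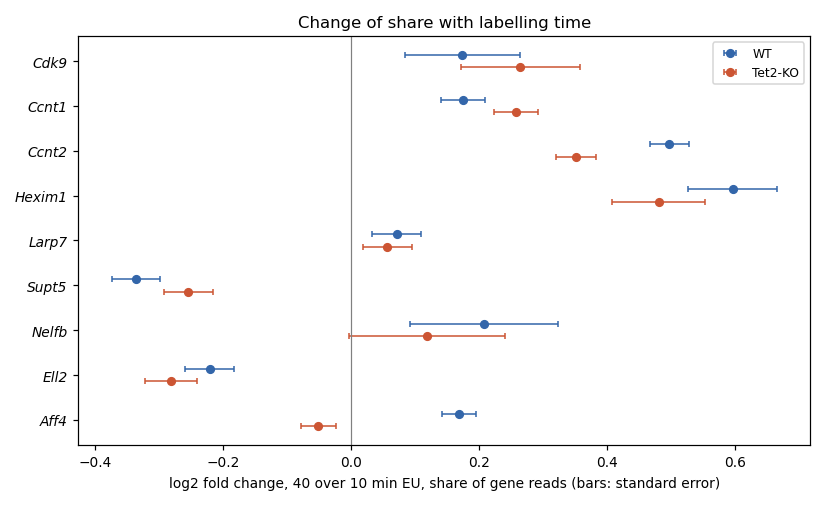
Change of the share of gene reads from 10 to 40 min of EU (log2 fold change, x axis) of each member in WT and in *Tet2*-KO, with bars of 1 standard error. *Hexim1* and *Ccnt2* are the farthest to the right in both genotypes, *Supt5* and *Ell2* are left of 0, and *Aff4* is at 0.17 in WT and -0.05 in *Tet2*-KO.

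The position of these values among all genes was described beside gene length. The change of *Hexim1* in WT was at percentile 95.0 of all genes tested and that of *Ccnt2* at percentile 93.1. The 299 protein-coding genes with 1 exon, to which *Hexim1* belongs, had a median of 0.17 in WT and 0.01 in *Tet2*-KO. The 3033 protein-coding genes with the shortest spans, 165 to 9398 bases, which hold *Hexim1* and *Cdk9*, had a median of -0.01 in WT. The 3032 with spans of 19518 to 36499 bases, which hold *Ccnt1*, *Ccnt2* and *Supt5*, had a median of -0.08, and these 3 members were on both sides of it. *Aff4* and *Ell2*, with spans of 70998 and 65608 bases, also went apart in WT, beside a median of -0.11 for genes of 36506 to 80171 bases.

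The slope of the calibrated level on labelling time served as the rate and is given as a description without a test. The use of a slope follows the study, which took it on amounts in attomoles from a linear fit to the spike-in, whereas reads per 1000 ERCC reads were used here. The rate of *Larp7* was 0.766 ± 0.066 (SE, 9 libraries) reads per 1000 ERCC reads per min in WT and 1.43 ± 0.0912 in *Tet2*-KO, a ratio of 1.87, the highest of the members. *Ccnt2* followed with a ratio of 1.73 and *Ccnt1* with 1.66. These 3 were above the median ratio of 1.55 over 19689 genes with a positive slope in both genotypes. As log2 ratios they were 0.90 ± 0.15 (SE), 0.79 ± 0.10 and 0.73 ± 0.13, beside a median of 0.64. *Ccnt1* was thus within its SE of the median, as was *Cdk9* with 0.60 ± 0.14. The ratio was 1.52 for *Cdk9*, 1.40 for *Supt5*, 1.34 for *Ell2*, 1.29 for *Nelfb* and 1.27 for *Aff4*. *Hexim1* had the lowest, 1.22, from rates of 0.417 ± 0.0141 in WT and 0.507 ± 0.0307 in *Tet2*-KO. The ratios and their order depended on the labelling times used. With 10 and 20 min only, the rate difference (log2, *Tet2*-KO over WT) was highest for *Ccnt2* (0.55), was 0.14 for *Cdk9* and turned to -0.30 for *Ell2*. With 20 and 40 min only, it was 1.19 for *Larp7*, followed by *Ell2* with 0.96, and lowest for *Hexim1* with 0.31. Beyond their standard error, 8 of the 9 differences moved with the first pair of times and 7 with the second. The intercept of the fitted line was below 0 in both genotypes for *Ccnt2* (-6.81 in WT and -7.56 in *Tet2*-KO), *Cdk9*, *Ccnt1*, *Hexim1*, *Larp7* and *Nelfb*, and for *Aff4* in WT. It was above 0 in both for *Supt5* (4.28 and 8.85) and *Ell2* (1.99 and 3.20). No error of the intercept was calculated, so these signs are descriptions and do not set the members apart.

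Levels of different genes were compared per kb of gene span, because the reads covered introns as well as exons. At 10 min *Supt5* was first, with 17.95 ± 0.348 CPM per kb (SD, n = 3) in WT and 15.4 ± 0.64 in *Tet2*-KO. *Hexim1* was second with 11.0 ± 0.935 and 9.51 ± 0.773, and in *Tet2*-KO it overlapped *Larp7* there (8.21 ± 0.518). At 40 min *Hexim1* was first in WT, with 16.6 ± 0.61 beside 14.2 ± 0.458 for *Supt5*, and in *Tet2*-KO the 2 genes overlapped at 13.3 ± 0.198 and 12.9 ± 0.516. *Larp7* (7.09 ± 0.164 in WT at 40 min) and *Ccnt2* (6.94 ± 0.21) came next and overlapped there, with *Larp7* ahead and apart in the 5 other groups. *Ccnt1* was the next in all 6 groups, with 4.47 ± 0.045 in WT at 40 min. *Cdk9* and *Aff4* followed and overlapped in 5 of 6 groups, at 3.85 ± 0.193 and 3.83 ± 0.0767 in WT at 40 min. *Ell2* was eighth and *Nelfb* last in all 6 groups, with 2.03 ± 0.112 and 1.24 ± 0.173 in WT at 40 min. This order depended on the use of span, since that of *Hexim1* is all exon. Per kb of exon, the WT libraries of 40 min had 61.0, 58.1 and 57.5 CPM for *Supt5*. *Larp7* had 50.9, 50.1 and 48.6 on that scale, and *Hexim1* 17.3, 16.6 and 16.1.

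The members' shares were also set against each other and against all tested genes over the 18 libraries, which share genotype and labelling time, so the coefficients are descriptions. Pearson's r of log2 CPM was 0.87 between *Ccnt1* and *Ccnt2*, 0.80 between *Supt5* and *Ell2*, -0.93 between *Ccnt2* and *Ell2* and -0.91 between *Ccnt2* and *Supt5*. *Hexim1* and *Larp7* had an r of -0.22. The pair of genes most alike was *Ankib1* (0.99) and *Ubr4* (0.98) for *Ccnt2*, *Mief1* and *Caprin1* (both 0.93) for *Ccnt1*, and *Zfp593* (0.84) and *Ints3* (0.83) for *Cdk9*. For the 7SK snRNP it was *Amph* and *Selenoi* (both 0.97) for *Larp7* and *Scaf1* (0.96) and *Slc25a36* (0.94) for *Hexim1*. It was *Rpl5* and *Fam32a* (both 0.98) for *Supt5*, *Znfx1* and *Psmd6* (both 0.76) for *Nelfb*, *Gm20517* (0.97) and *Morn3* (0.96) for *Ell2*, and *Atg2b* (0.92) and *Cdh1* (0.88) for *Aff4*.

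Other genes of pausing and elongation were described from a list of 33, of which 32 were tested. *Ell3* had 3 reads or fewer per library and was not, and 99.07% of its span lies in another gene of the same strand. Per ERCC read all 32 were higher in *Tet2*-KO in the average over times, against 80.5% of all genes. By share 8 were higher, against 24.6% of all genes, 11 were lower, against 32.0%, and 13 did not pass, with a median of -0.04, the same as over all genes. The highest was *Mllt3*, a partner of AFF4 that reads acetylated histones, with 0.62 ± 0.02 (log2, SE; edgeR adjusted p = 1.22e-24) and 101 CPM in WT and 161 in *Tet2*-KO at 40 min. *Tcea1*, a factor that rescues stalled polymerase (0.23), and *Aff1*, the alternative scaffold to AFF4 (0.19), followed, and 72.2% of the span of *Tcea1* is shared with another gene of the same strand. The lowest were *Eaf2*, a partner of the ELL proteins (-0.42), *Ssrp1*, a subunit of the histone chaperone FACT (-0.28), and *Ice2*, a subunit of the little elongation complex (-0.27).

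The partners of the members differed in how they went. Of the 7SK snRNP, *Mepce*, which caps 7SK RNA, was lower by share (-0.23, edgeR adjusted p = 0.000585), and *Hexim2* (-0.08) and *Rn7sk* (0.09), the 7SK RNA gene, did not pass. Reads of *Rn7sk* are uncertain, since it has many near-identical copies. *Supt4a*, the small subunit of DSIF, was higher (0.16, edgeR adjusted p = 0.0251), with *Supt5* lower. None of the 3 other NELF genes, *Nelfa*, *Nelfcd* and *Nelfe*, passed (adjusted p = 0.093, 0.938 and 0.127). Of the 6 tested partners in the super elongation complex, *Aff1* and *Mllt3* were higher, against 24.6% of all genes, and *Ell* and *Eaf2* lower, against 32.0%. From 10 to 40 min 17 of the 32 rose in share in WT, against 16.1% of all genes, and 6 fell, against 29.5%. In *Tet2*-KO 16 rose, against 16.5%, and 4 fell, against 20.0%.

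**Figure D5:**
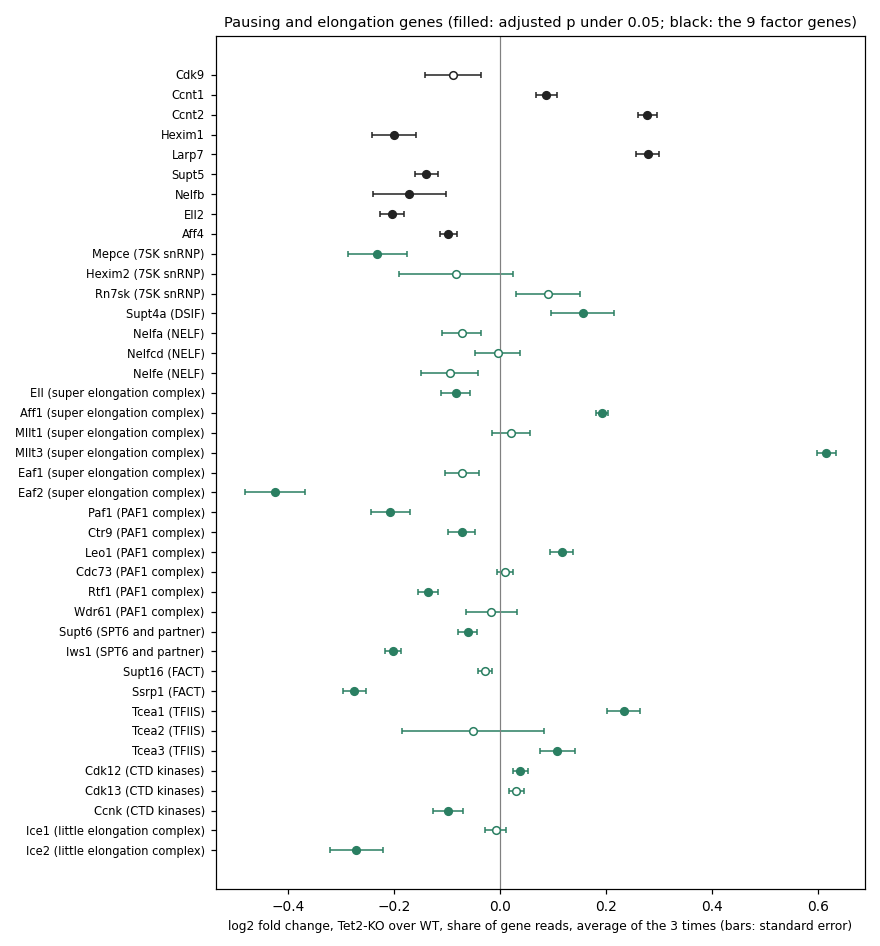
Difference in share of gene reads between *Tet2*-KO and WT in the average of the 3 times (log2 fold change, x axis, bars of 1 standard error) for the 9 members in black and other tested pausing and elongation genes in green, filled where the adjusted p was under 0.05. Points lie on both sides of 0 within the 7SK snRNP, the super elongation complex and the PAF1 complex, from -0.42 for *Eaf2* to 0.62 for *Mllt3*.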

How the data were processed

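Reads were trimmed with Trimmomatic 0.39, aligned with HISAT2 2.2.1 to mm10 with GENCODE M19 and ERCC sequences, and counted with HTSeq 0.12.4 by the authors, who deposited raw read counts per gene. The HTSeq settings are not given in the sources used here. Of 426 protein-coding genes wholly inside another on the same strand, 425 had no read, against 92 of 811 on the opposite strand, so counts cover whole gene spans by strand and leave out shared stretches. Such stretches make up 2.13% of *Cdk9*, 3.07% of *Ell2*, 0.251% of *Aff4* and none of the other members. Rows that name no gene held 20.9% to 24.9% of reads and were left out. Of the 54446 gene identifiers, 54409 were in GENCODE M21.

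Counts were analysed with edgeR 4.0.16 in R 4.3.3 (limma 3.58.1). Genes were kept by filterByExpr (minimum count 10), and quasi-likelihood models were fitted on all 19910 genes with 1 mean for each of the 6 groups and 18 libraries. Library sizes were the ERCC reads or the gene reads, and p-values were adjusted by Benjamini-Hochberg at 0.05. Standard errors were taken as the absolute log2 change over the root of the F statistic. The counting error of a member was at most 7.16% (CV) in a library, and reads are not independent molecules. Replicates differed by more than counting noise, as the chi-square averaged over genes was 1.66 to 5.52 in 18 pairs. On simulated counts for 19910 genes, 200 of 200 genes changed by a log2 fold of 1 between genotypes per ERCC read were recovered, with 11 unchanged genes called by edgeR and 16 by DESeq2 1.42.0. The simulation had the same spread for all genes, no change with labelling time and no shift of all genes between genotypes. It therefore does not bear on the smaller differences in share. Alternatives were TMM factors, DESeq2, other filters, ERCC transcripts with at least 100 reads, single labelling times, a replicate block and each library left out.

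The members, lists and tests were chosen with earlier results of these data known. All members are named, the pathway genes named in order are the 3 highest and 3 lowest of those called, and the 2 genes most alike are by Pearson's r of log2 CPM (reads per 1000000 gene reads) with 0.5 added. Partners of the members' complexes were named after their values were seen. The values of 1 gene of the pathway list are not reported here.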

Additional observations from a re-analysis of the deposited data

Results flagged for a closer look

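The difference between *Tet2*-KO and WT changed between 10 and 40 min of EU by edgeR's test of the change itself for 5 members per ERCC read, with values of -0.57 for *Aff4*, -0.49 for *Ccnt2*, -0.47 for *Hexim1*, -0.40 for *Ell2* and -0.36 for *Larp7* (log2), against 19.3% of all genes lower and a median of -0.29. With each library left out in turn this count was 2 to 7, and the call was lost in 8 of these 18 fits for *Larp7*, in 5 for *Ell2* and in 3 for *Hexim1*. By share of gene reads it changed for *Aff4* (-0.22) and *Ccnt2* (-0.15), against 3.36% of all genes lower, and *Ccnt2* lost the call in 7 of the 18 fits. The share of *Aff4* went from 242 ± 3.9 to 272 ± 5.45 CPM (SD, n = 3) in WT and from 242 ± 4.78 to 234 ± 4.72 in *Tet2*-KO. Reads on genes per ERCC read went from 42.8 to 50.8 at 10 min to 239 to 259 at 40 min in WT, and from 89.6 to 100.7 to 366 to 429 in *Tet2*-KO, and the part of this in the values per ERCC read was not tested.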

How the results depend on the processing

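Members lower by share numbered 1 with TMM factors and 1 with DESeq2 at 10 min (3 as reported), and 1 with TMM factors, with DESeq2 and without a filter on low counts at 20 min (2 as reported). Of all 19910 genes, those lower at 10 min numbered 4262 with TMM factors and 4108 with DESeq2 (5389 as reported). At 20 min they numbered 3628 and 3603 (4124 as reported), and 3999 of 36007 genes without the filter. Members that rose in share from 10 to 40 min in WT numbered 7 with TMM factors and 7 with DESeq2 (4 as reported). Of all 19910 genes, 4546 and 4411 then rose (3196 as reported). *Aff4* at 10 min turned to 0.0689 with TMM factors, which passed as higher (edgeR adjusted p = 0.0467), and to 0.0688 with DESeq2 (adjusted p = 0.0572), and the rate difference of *Ell2* to -0.30 (log2) with 10 and 20 min only. The cause of these moves was not tested. With each library left out in turn, the members lower at 20 min numbered 1 to 2, and those whose difference fell from 10 to 40 min 2 to 7 per ERCC read and 1 to 2 by share. The shares of all genes in these fits are not given here, so these counts do not set the members apart. Ranges that crossed 0 were -0.0121 to 0.0147 for *Aff4* at 10 min, -0.0303 to 0.0324 for *Ccnt1* at 10 min, -0.14 to 0.0160 for *Hexim1* at 20 min, -0.16 to 0.0658 for *Cdk9* at 40 min, and for the change with time -0.0215 to 0.21 for *Cdk9*, -0.0562 to 0.0363 for *Larp7* and -0.17 to 0.0280 for *Nelfb*, none of which passed as reported. Correlations were -0.10 to 0.10 over 45 same-numbered pairs of samples and -0.13 to 0.16 over 90 other pairs. Pairing by replicate number was thus not seen, though this cannot show how samples were processed. The replicate block ended 1 call, *Ell2* at 20 min per ERCC read (edgeR adjusted p = 0.0556, range 0.0207 to 0.152 over 24 alternatives). That call was also lost with DESeq2 (Wald test, adjusted p = 0.0574) and without the filter on low counts (edgeR adjusted p = 0.0731). Without that filter the change of *Larp7* from 10 to 40 min per ERCC read lost its call too (edgeR adjusted p = 0.0583).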
